A study of Mus musculus with 9 samples.

Results

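The genes described here encode parts of the actomyosin and contractile cytoskeleton, the filaments with which fibroblasts and smooth muscle cells pull. There were 10 of them among the 54532 genes in the deposited tables: Acta2, Actg2, Tagln, Cnn1, Tpm1, Tpm2, Myl9, Cald1, Actn1 and Vim. The choice was by name, with earlier results of these data known, so shares of all genes set beside these 10 are a description. They were followed in poly A RNA of 3T3-L1, an embryonic mouse fibroblast line that can be turned into adipocytes and is used as a preadipocyte model. There were 9 libraries in 3 groups, 3 libraries per group, in which cells had been kept confluent for 3 days. The Undifferentiated group served as the control without differentiation. The Differentiated group was given a medium with 1 µM dexamethasone, 0.5 mM 3-isobutyl-1-methylxanthine, 1 µM rosiglitazone and 10 µg/mL insulin. The Lysfree group was given that medium prepared without added lysine. All libraries came from this single cell line, and the labels do not say whether the replicates were separate cultures, so p-values measure only the spread between these libraries, which may be technical.

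Total counts ranged from 15880144 to 21806693 per library. No pair of libraries was a duplicate. The chi-square per degree of freedom between replicates lay between 2.76 and 12.3, except that Lysfree 1 gave 43.3 and 44.4 against Lysfree 2 and Lysfree 3. Lysfree 1 therefore stood apart, and results that moved without it are given both ways. The adipocyte marker list followed the labels. Its 9 genes summed to 326.6 to 410.8 FPKM (fragment counts scaled for gene length and for the size of the library) in Undifferentiated, 7456 to 7792 in Differentiated and 300.3 to 421.4 in Lysfree.

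Contractile force comes from myosin motors sliding along actin filaments. Tropomyosins and caldesmon lie along the filament and set the access of myosin, the regulatory light chain switches the motor on when phosphorylated, calponin and transgelin bind and stabilise actin, alpha-actinin crosslinks filaments and anchors them at adhesions, and vimentin forms the separate intermediate filament network of mesenchymal cells. Many of these genes carry CArG boxes, the sites bound by serum response factor (SRF). Its myocardin-related cofactors Mrtfa and Mrtfb respond to the pool of free actin. Preadipocytes are spindle-shaped cells with actin stress fibres, which are dismantled as they round up into adipocytes.

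Promoter windows are shown for Acta2 and Myl9, which had the largest fitted fold changes of the 10 genes in Differentiated vs Undifferentiated, and for Tpm2, which differed in the other direction. Each window runs from 250 bases before to 50 bases after the RefSeq start of the gene, 5′ to 3′ on its strand (GRCm38.p6). These starts lie 37, 44 and 211 bases from the 5′ ends of Acta2, Myl9 and Tpm2 in the deposited tables. The Acta2 window is chr19:34255324-34255623 on the minus strand, the Myl9 window is chr2:156775214-156775513 on the plus strand and the Tpm2 window is chr4:43523505-43523804 on the minus strand. Capitals mark CArG boxes, read as CC, 6 middle bases of A or T with at most 1 G or C among them, and GG, on either strand.
Acta2: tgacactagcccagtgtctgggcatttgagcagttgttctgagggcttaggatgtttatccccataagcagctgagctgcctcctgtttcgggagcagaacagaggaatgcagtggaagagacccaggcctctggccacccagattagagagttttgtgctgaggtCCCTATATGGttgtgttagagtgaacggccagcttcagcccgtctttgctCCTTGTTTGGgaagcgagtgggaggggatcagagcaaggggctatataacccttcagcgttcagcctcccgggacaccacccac
Myl9: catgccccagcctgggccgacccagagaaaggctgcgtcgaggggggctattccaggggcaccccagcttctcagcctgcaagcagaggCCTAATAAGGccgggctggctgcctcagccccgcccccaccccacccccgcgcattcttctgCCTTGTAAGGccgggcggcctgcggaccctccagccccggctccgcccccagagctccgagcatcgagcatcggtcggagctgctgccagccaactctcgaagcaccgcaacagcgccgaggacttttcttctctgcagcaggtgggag
Tpm2: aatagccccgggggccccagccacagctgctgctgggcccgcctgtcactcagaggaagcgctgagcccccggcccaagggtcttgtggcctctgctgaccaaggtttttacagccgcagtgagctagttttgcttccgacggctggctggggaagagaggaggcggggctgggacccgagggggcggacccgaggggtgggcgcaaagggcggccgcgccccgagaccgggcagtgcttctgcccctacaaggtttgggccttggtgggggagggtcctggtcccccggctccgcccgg
The Myl9 window held CCTAATAAGG at -161 and CCTTGTAAGG at -99, counted from the RefSeq start to the first base of the box. The Acta2 window held CCCTATATGG at -84 and CCTTGTTTGG at -34. No such letters were found in the Tpm2 window or in those of the other 5 members with a window (Tpm1, Cald1, Cnn1, Actn1 and Vim). At least 1 box of this kind was present in 9.98% of all 32851 windows, and 2 or more were present in 0.822%. With no G or C allowed in the middle, 1 member (Myl9) and 1.63% of windows had a box. The rule with 1 G or C was chosen after the sequences had been seen. These matches describe letters only.

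A gene was called when its edgeR quasi-likelihood adjusted p was below 0.05 and its fold change was at least 2. In Differentiated vs Undifferentiated, 6 of the 10 genes were called lower (Acta2, Actg2, Myl9, Tpm1, Cald1 and Actn1), against 11.4% of 24402 genes tested, and 0 were called higher, against 10.4%. With DESeq2 the counts were also 6 and 0. At an unadjusted p under 0.05 with no fold threshold, 1 was higher (Tpm2) and 7 were lower. The median log2 fold change of the 10 genes was -2.06, and that of all genes was 0.02. With Myl9, which had 1 group at the floor of 3 counts, set at its bound, and without Cnn1, the members' median was -1.67. Cnn1 was at the floor in both groups, and this shift came from leaving it out. In Lysfree vs Undifferentiated, 4 genes were called lower (Acta2, Myl9, Tpm1 and Tpm2), against 8.76% of 23994 genes, and 0 higher, against 5.52%, where DESeq2 also gave 4 and 0 and the unadjusted p gave 1 higher (Actn1) and 5 lower. The median was -0.38, against -0.02 for all genes.

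In Lysfree vs Differentiated, 7 genes were called higher (Acta2, Actg2, Myl9, Cnn1, Tpm1, Cald1 and Actn1), against 8.14% of 24130 genes, and 1 was called lower (Tpm2), against 10.5%. Leaving out Cnn1, whose counts were at most 4, left 6 called higher. The median was 1.55, or 1.37 with Myl9 and Cnn1 set at their bounds, against -0.06 for all genes. The groups of FPKM values did not overlap for 9 genes in Differentiated vs Undifferentiated, 6 in Lysfree vs Undifferentiated and 9 in Lysfree vs Differentiated. Of all genes, 50.9%, 43.5% and 46.6% did not overlap in these comparisons. The 3 comparisons share their groups pairwise and are not independent of each other. Without Lysfree 1 the numbers of members called were 0 higher and 4 lower against Undifferentiated, and 7 higher and 1 lower against Differentiated.

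**Figure D1:**
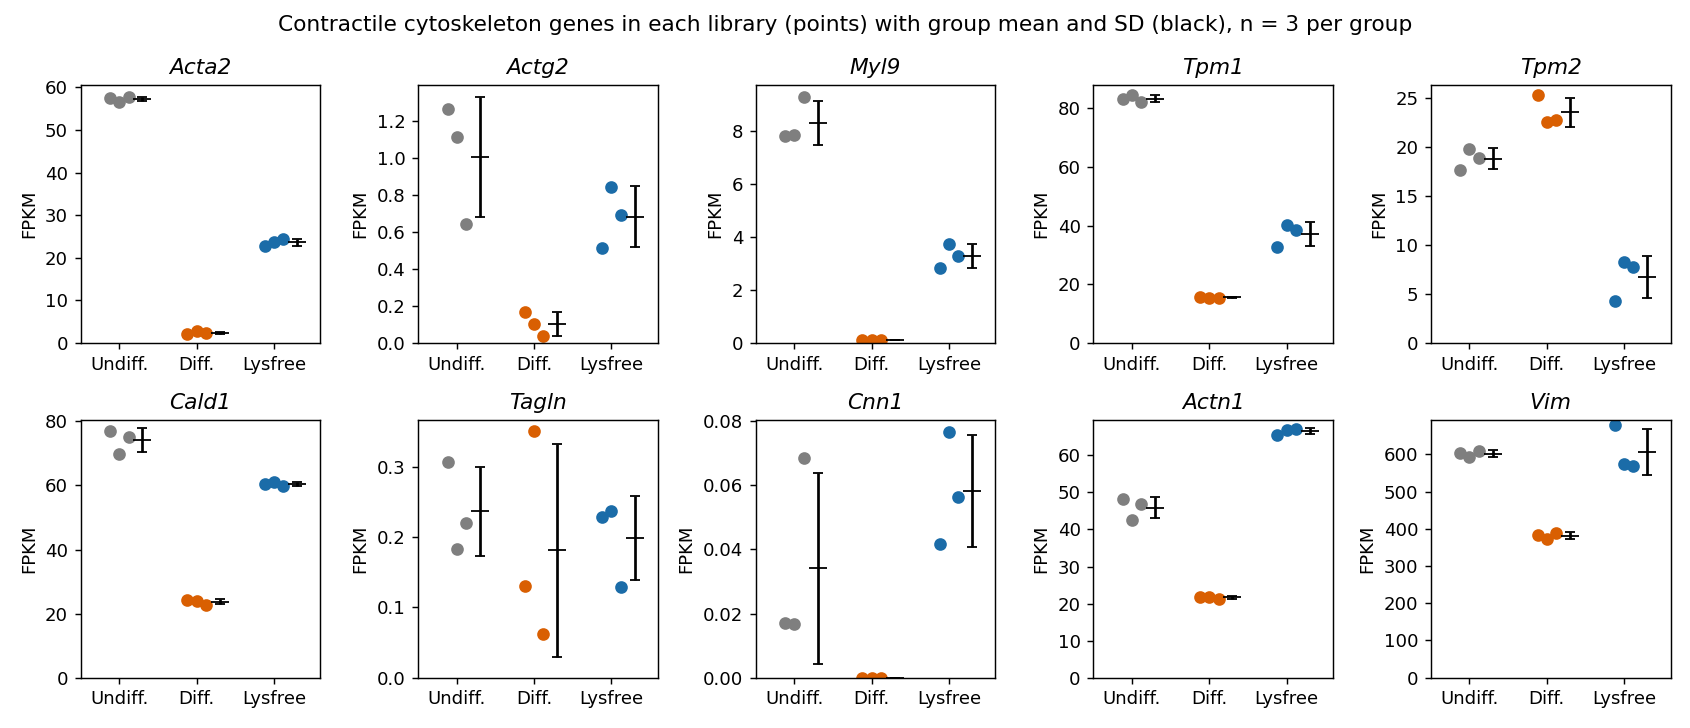
FPKM (vertical axes, linear, each starting at 0) of the 10 genes in each library of Undifferentiated (grey), Differentiated (orange) and Lysfree (blue), with the group mean and SD in black (n = 3). In 8 panels (all but Tagln and Tpm2) the 3 Differentiated points were the lowest, and for Tpm2 they were the highest.

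In bulk RNA, fewer cells of a type and less RNA per cell cannot be told apart, so each level is an average over the culture. The smooth muscle actins were measured first. Acta2 (ENSMUSG00000035783, chr19:34241090-34255336, minus strand), which encodes smooth muscle alpha-actin, the actin of stress fibres in myofibroblasts, was at 57.45, 56.7 and 57.71 FPKM in Undifferentiated, at 2.177, 2.683 and 2.329 in Differentiated and at 22.75, 23.61 and 24.51 in Lysfree. The 3 groups did not overlap, with Lysfree between the others. Differentiated was lower than Undifferentiated by 24.2-fold (log2 fold change -4.60, SE 0.10, edgeR adjusted p below the smallest number R can store). Lysfree was 10.3-fold above Differentiated (3.36, SE 0.14, edgeR adjusted p = 3.73e-14) and below Undifferentiated (log2 fold change -1.23, SE 0.10, edgeR adjusted p = 1.13e-11).

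Actg2 (ENSMUSG00000059430, chr6:83512905-83536265, minus strand), the enteric smooth muscle gamma-actin, had the same order at a level near 1 FPKM or lower. Its counts were 42, 38 and 16 in Undifferentiated, 4, 3 and 1 in Differentiated and 14, 25 and 21 in Lysfree. Every Differentiated library was below every other library, while the Undifferentiated and Lysfree libraries overlapped. The log2 fold change was -3.29 (SE 0.50, edgeR adjusted p = 1.89e-10) in Differentiated vs Undifferentiated and 2.75 (SE 0.54, edgeR adjusted p = 0.000281) in Lysfree vs Differentiated. In Lysfree vs Undifferentiated it was -0.52 (SE 0.35, edgeR adjusted p = 0.283), which did not pass. Its FPKM was 1.01 ± 0.325, 0.103 ± 0.0631 and 0.683 ± 0.165 (SD, n = 3) in the same order of groups. With limma on log2(FPKM + 1), in which so low a gene is pulled towards no change, the first of these differences was -0.85 and the second 0.61, and neither was called.

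The regulatory light chain Myl9 (ENSMUSG00000067818, chr2:156775420-156781658, plus strand) had 194, 200 and 173 counts in Undifferentiated, 2 in each Differentiated library and 58, 83 and 74 in Lysfree. This corresponded to 8.33 ± 0.841, 0.103 ± 0.0098 and 3.29 ± 0.453 FPKM (SD, n = 3). The groups did not overlap, and the Differentiated libraries were all under the floor of 3 counts per library. Against that floor Myl9 was at least 56-fold lower in Differentiated than in Undifferentiated (edgeR adjusted p = 4.31e-85) and at least 23.4-fold higher in Lysfree than in Differentiated (edgeR adjusted p = 1.05e-09). These bounds cover counting error only. Lysfree remained below Undifferentiated, with a log2 fold change of -1.29 (SE 0.19, edgeR adjusted p = 1.33e-06).

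The tropomyosins differed from each other. Tpm1 (ENSMUSG00000032366, chr9:67022590-67049406, minus strand), a source of high molecular weight tropomyosins of muscle and stress fibres, was at 83.1, 84.57 and 82.14 FPKM in Undifferentiated, at 15.81, 15.27 and 15.46 in Differentiated and at 32.64, 40.33 and 38.39 in Lysfree. It had the order of Acta2, with no overlap. Its log2 fold change was -2.45 (SE 0.06, edgeR adjusted p below the smallest number R can store) in Differentiated vs Undifferentiated, -1.12 (SE 0.10, edgeR adjusted p = 3.92e-11) in Lysfree vs Undifferentiated and 1.32 (SE 0.10, edgeR adjusted p = 3.09e-10) in Lysfree vs Differentiated.

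Tpm2 (ENSMUSG00000028464, chr4:43514711-43523765, minus strand), which encodes beta-tropomyosin, went the other way. Its FPKM was 17.71, 19.84 and 18.93 in Undifferentiated, 25.31, 22.55 and 22.79 in Differentiated and 4.245, 8.256 and 7.741 in Lysfree. Differentiated was highest and Lysfree lowest, again without overlap, and Lysfree 1 was the lowest library. The difference between Differentiated and Undifferentiated passed the adjusted p but was under 2-fold (log2 fold change 0.29, SE 0.07, edgeR adjusted p = 4.73e-05). Tpm2 fell in Lysfree, with a log2 fold change of -1.43 against Undifferentiated (SE 0.16, edgeR adjusted p = 3.94e-09) and of -1.73 against Differentiated (SE 0.17, edgeR adjusted p = 2.88e-08). Without Lysfree 1 these values were -1.21 and -1.51. The deposited values are sums per gene, so the splice forms of Tpm1, Tpm2 and Cald1 that distinguish muscle from other cells were not separated.

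Cald1 (ENSMUSG00000029761, chr6:34598500-34775473, plus strand), which encodes caldesmon, was at 77.11, 69.97 and 75.22 FPKM in Undifferentiated, at 24.36, 23.89 and 22.78 in Differentiated and at 60.47, 61.08 and 59.87 in Lysfree. Lysfree lay nearer to Undifferentiated than to Differentiated. Cald1 fell in Differentiated vs Undifferentiated (log2 fold change -1.67, SE 0.05, edgeR adjusted p = 1.44e-238) and was higher in Lysfree than in Differentiated (1.42, SE 0.08, edgeR adjusted p = 5.2e-12). The difference between Lysfree and Undifferentiated was -0.25 on the log2 scale (SE 0.09, edgeR adjusted p = 0.0311), under 2-fold, although the libraries did not overlap.

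Actn1 (ENSMUSG00000015143, chr12:80167547-80260371, minus strand), the non-muscle alpha-actinin of focal adhesions and stress fibres, was the only one of the 10 genes with its highest non-overlapping level in Lysfree. It was at 48.12, 42.62 and 46.99 FPKM in Undifferentiated, at 21.91, 21.9 and 21.19 in Differentiated and at 65.58, 66.75 and 67.19 in Lysfree. Its log2 fold change was -1.11 (SE 0.06, edgeR adjusted p = 2.95e-87) in Differentiated vs Undifferentiated and 1.68 (SE 0.08, edgeR adjusted p = 8.13e-13) in Lysfree vs Differentiated. Lysfree exceeded Undifferentiated by 0.58 on the log2 scale (SE 0.10, edgeR adjusted p = 6.23e-06), which was under 2-fold. Of its exon bases, 8.15% overlap the predicted genes Gm47766 and Gm47767.

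Vim (ENSMUSG00000026728, chr2:13573927-13582826, plus strand), which encodes vimentin, was the most abundant of the 10 genes. Its FPKM was 603.4, 592 and 610 in Undifferentiated, 384.3, 372.9 and 389.1 in Differentiated and 678.3, 575 and 568.6 in Lysfree. Differentiated was lowest, and Undifferentiated and Lysfree overlapped, with Lysfree 1 the highest library of all. Vim was not called in any comparison. The log2 fold change of -0.68 in Differentiated vs Undifferentiated (SE 0.04, edgeR adjusted p = 4.33e-56) and that of 0.73 in Lysfree vs Differentiated (SE 0.08, edgeR adjusted p = 6.65e-08) were under 2-fold. In Lysfree vs Undifferentiated it was 0.06 (SE 0.09, edgeR adjusted p = 0.618), and it was -0.05 without Lysfree 1.

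The genes most used as smooth muscle markers beside Acta2, Tagln and Cnn1, were near the limit of detection. Tagln (ENSMUSG00000032085, chr9:45929619-45936058, minus strand), which encodes transgelin (SM22), had 13, 8 and 7 counts in Undifferentiated, 4, 13 and 2 in Differentiated and 8, 9 and 5 in Lysfree. The groups overlapped in every comparison, and the adjusted p of edgeR was 0.631 between Differentiated and Undifferentiated, 0.801 between Lysfree and Undifferentiated and 0.874 between Lysfree and Differentiated. Exons of genes on the opposite strand overlap 67.9% of the 1988 exon bases of Tagln, 62.4% of them in Gm48529 and 5.43% in Pcsk7. Of its 150-base words, 40.2% also occur in Gm48529. The strand setting used for counting is not given in the sources used here, and reads of an overlap could have gone to either gene or to neither, so the level of Tagln is uncertain. Gm48529 itself had 5 to 14 counts per library and Pcsk7 521 to 955.

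Cnn1 (ENSMUSG00000001349, chr9:22099216-22109630, plus strand), which encodes basic calponin, had 1, 1 and 3 counts in Undifferentiated, 0 in every Differentiated library and 2, 4 and 3 in Lysfree. It has no overlapping exon of another gene. The call in Lysfree vs Differentiated rested on an edgeR adjusted p of 0.0444. It was lost in 9 of 13 alternatives, whose adjusted p ranged from 0.00649 to 0.160, and no fold is given at these counts.

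**Figure D2:**
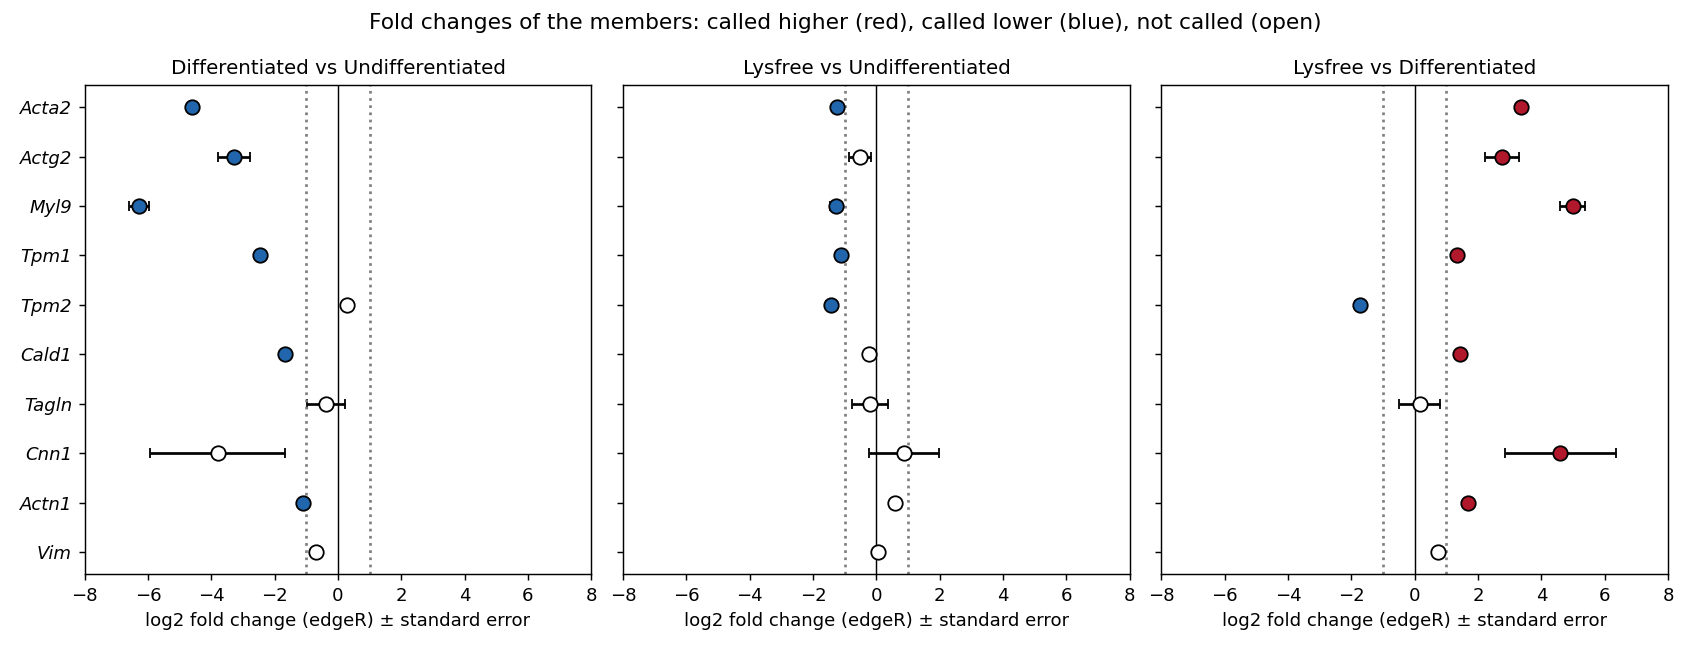
Fitted log2 fold change (horizontal axes) with standard error of the 10 genes in the 3 comparisons, with filled points for called genes, red higher and blue lower, and dotted lines at 2-fold. Acta2, Actg2, Myl9, Tpm1, Cald1 and Actn1 are blue in Differentiated vs Undifferentiated (left) and red in Lysfree vs Differentiated (right), where the fitted values of Myl9 and Cnn1 depend on the prior count and are not bounds.

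Each contractile isoform has relatives that cells use outside muscle, so its share of the summed FPKM of its family was computed in every library. With 3 libraries against 3, the exact two-sided permutation test of a share cannot go below p = 0.1, and the shares are given as a description. Acta2 made up 6.97% ± 0.132 of the actins in Undifferentiated, 0.357% ± 0.0292 in Differentiated and 3.40% ± 0.362 in Lysfree (SD, n = 3). The cytoplasmic actins Actb and Actg1 made up nearly all of the rest, with Actb at 59.3%, 67.1% and 63.7% in the same order. The summed actin FPKM was 822.7 ± 22.6, 670.6 ± 17.4 and 698.4 ± 54.5. The Acta2 share thus differed by more than its spread, while Actb itself was called in no comparison, with log2 fold changes of -0.14, -0.09 and 0.05.

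Among the tropomyosins, the share of Tpm1 was 32.5% ± 0.384 in Undifferentiated, 9.09% ± 0.124 in Differentiated and 19.3% ± 2.13 in Lysfree. The share of Tpm2 was 7.34% ± 0.296, 13.8% ± 0.500 and 3.50% ± 1.14. Tpm2 was thus a larger part of the family than Tpm1 in Differentiated only. This order rests on the length scaling, since in raw counts the Differentiated shares were 17.8% for Tpm1 and 12.1% for Tpm2. Tpm4, a low molecular weight tropomyosin of non-muscle cells, had the largest share in all groups, at 44.3%, 60.95% and 59.7%.

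Myl9 made up 22.7% ± 2.73, 0.445% ± 0.0199 and 13.03% ± 1.30 of the regulatory light chains. In raw counts, which are not scaled for length, these shares were 9.33%, 0.155% and 4.97%, in the same order of groups. By FPKM the remainder was mostly Myl12a, a non-muscle light chain, at 72.6%, 98.4% and 82.4%. Another gene annotated as Myl12b, also in the deposited tables, overlaps 13.8% of the exon bases of Myl12a and 26.7% of those of Myl12b. It was not in the family sum, so these shares cover only the 3 genes summed. The split of reads between it and these light chains is uncertain. The share of Actn1 against Actn4, the other non-muscle alpha-actinin, was 44.7% ± 1.97 in Undifferentiated, 23.3% ± 0.259 in Differentiated and 60.8% ± 2.73 in Lysfree. Actn1 exceeded Actn4 in the Lysfree libraries only.

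In the calponin and transgelin families the member genes were a trace of the deposited FPKM, although the level of Tagln is uncertain, as described above. Calponin was supplied by Cnn2 and Cnn3, the calponins of non-muscle cells, and the summed FPKM of the family was 241.5 ± 7.86 in Undifferentiated, 45.1 ± 2.41 in Differentiated and 117.6 ± 8.79 in Lysfree. Cnn2 had log2 fold changes of -3.99, -1.21 and 2.77 in Differentiated vs Undifferentiated, in Lysfree vs Undifferentiated and between Lysfree and Differentiated, and was called in all 3. Cnn3 was called in the first comparison, at -1.81, and had -0.83 and 0.97 in the others. By these values, which share the uncertainty of Tagln, the transgelin FPKM came almost entirely from Tagln2, at 107.0 ± 2.03, 103.9 ± 3.63 and 266.9 ± 20.2. Tagln2 did not pass in Differentiated vs Undifferentiated (-0.07, edgeR adjusted p = 0.321) and rose in Lysfree, by 1.37 on the log2 scale against Undifferentiated (edgeR adjusted p = 2.02e-13) and 1.43 against Differentiated (edgeR adjusted p = 2.03e-11).

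**Figure D3:**
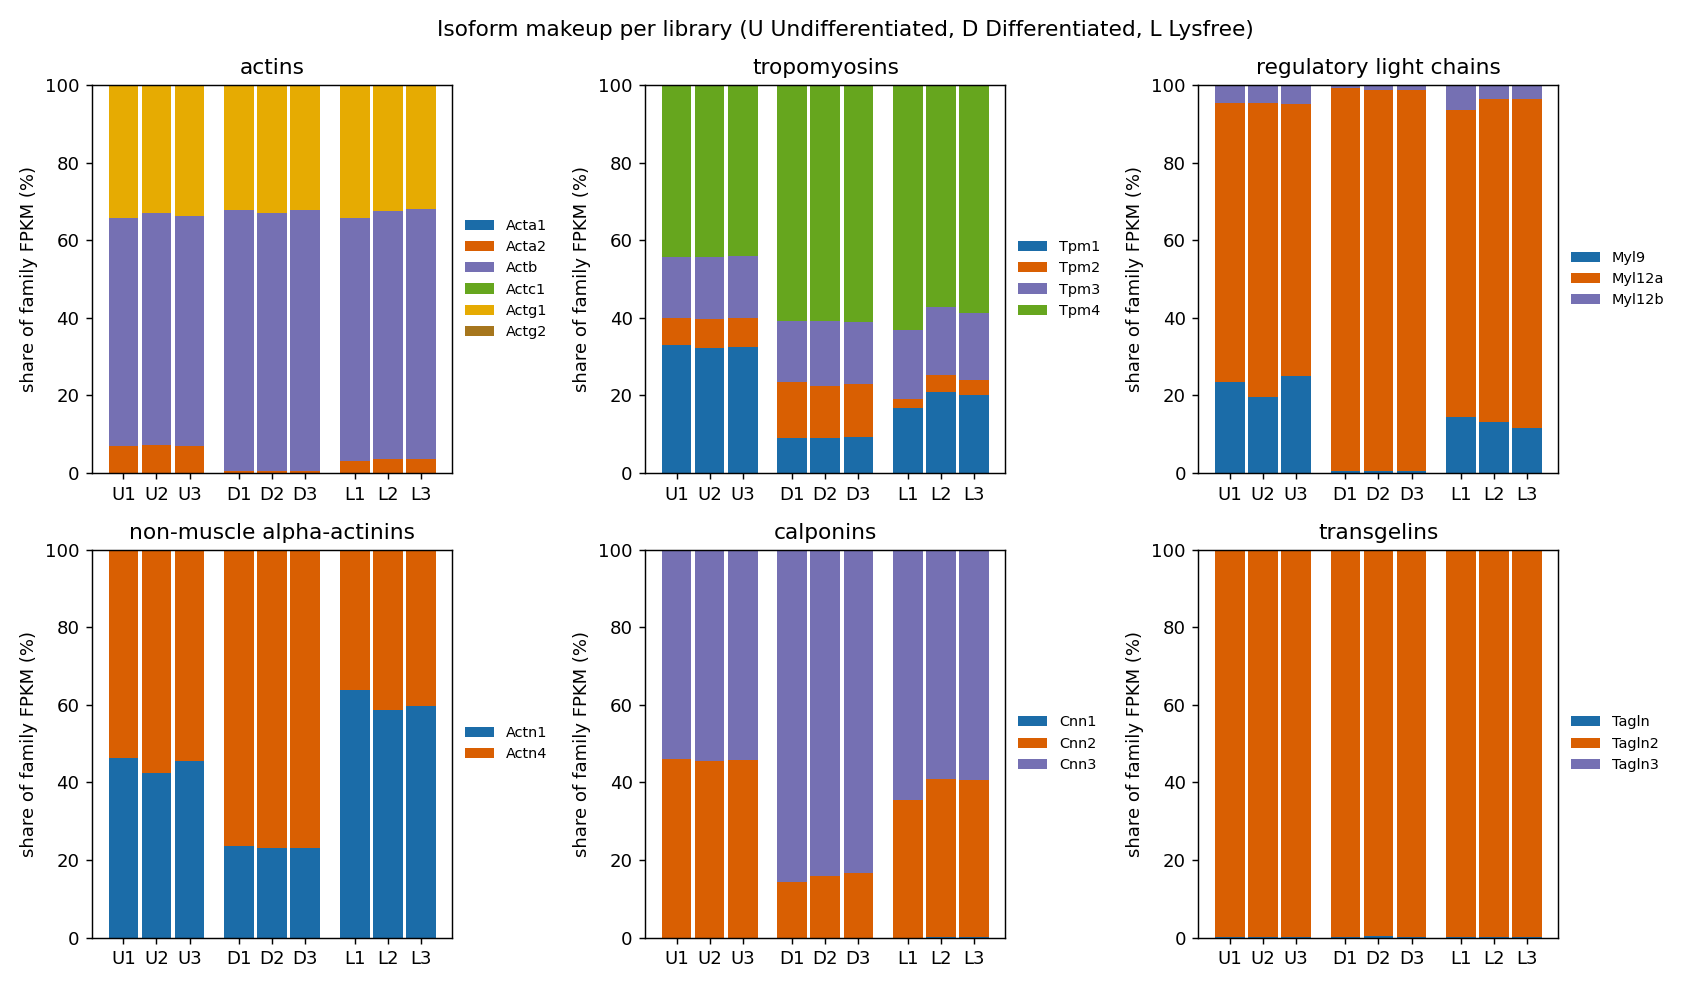
Share of each gene in the summed FPKM of its family (vertical axes, percent, bars stacked to 100) in each library, in 6 panels for actins, tropomyosins, regulatory light chains, non-muscle alpha-actinins, calponins and transgelins. Acta2, Tpm1 and Myl9 shrink in the Differentiated bars and are intermediate in the Lysfree bars, while Actn1 is largest in Lysfree.

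The mRNA of SRF and its cofactors was measured, which does not give their activity. Whether they regulate these genes in these cells was not tested. Srf was at 14.2 ± 0.790, 13.9 ± 0.917 and 15.7 ± 3.57 FPKM (SD, n = 3) in Undifferentiated, Differentiated and Lysfree, with log2 fold changes of -0.06, 0.20 and 0.25 and edgeR adjusted p of 0.572, 0.279 and 0.19. The cofactor Mrtfa (listed as Mkl1) was at 12.7 ± 0.680, 8.89 ± 0.0863 and 13.9 ± 0.119 FPKM, a difference of -0.55 on the log2 scale in Differentiated vs Undifferentiated (edgeR adjusted p = 1.79e-15) and of 0.71 in Lysfree vs Differentiated (edgeR adjusted p = 1.96e-06), both under 2-fold. Mrtfb (listed as Mkl2) ranged over 4.593 to 6.061 FPKM in all libraries. Myocd, which drives the smooth muscle programme, had 0 counts in every library.

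Among the other actins, myosins and tropomyosins, 1 of 15 genes was called higher and 1 lower in Differentiated vs Undifferentiated. In Lysfree vs Undifferentiated 1 was called lower, and in Lysfree vs Differentiated 1 higher and 2 lower. The medians were -0.17, -0.22 and 0.14. Of all genes, 10.4% were called higher and 11.4% lower in Differentiated vs Undifferentiated. In Lysfree vs Undifferentiated these shares were 5.52% and 8.76%, and in Lysfree vs Differentiated 8.14% and 10.5%. The same shares of all genes stand beside the lists that follow. Mylk, the smooth muscle and non-muscle myosin light chain kinase, was at 1.83 ± 0.116, 3.35 ± 0.259 and 0.289 ± 0.0217 FPKM. It fell by 3.47 on the log2 scale in Lysfree vs Differentiated (edgeR adjusted p = 4.92e-14), in the direction of Tpm2 and against that of Myl9. Myh11, the smooth muscle myosin heavy chain, had 10, 11 and 1 counts in Undifferentiated, 35, 35 and 36 in Differentiated and 0, 8 and 2 in Lysfree, and was lower in Lysfree than in Differentiated (log2 fold change -3.46, edgeR adjusted p = 1.71e-05). Myl12b was higher in Lysfree than in Differentiated (2.17, edgeR adjusted p = 4.85e-06), although its split from the other gene annotated as Myl12b is uncertain.

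In a list of actin-binding genes and SRF targets, 9 of 18 were called lower and 1 higher in Differentiated vs Undifferentiated, 5 lower and 2 higher in Lysfree vs Undifferentiated, and 2 lower and 7 higher in Lysfree vs Differentiated. At an unadjusted edgeR p under 0.05 with no fold threshold, 13 were lower and 3 higher, 11 lower and 4 higher, and 9 lower and 9 higher. The list was thus evenly split in Lysfree vs Differentiated without the fold threshold. The median log2 fold changes of the list were -0.75, -0.58 and 0.31. With genes that had 1 group at the floor set at their bounds, the medians were -0.38, -0.54 and 0.45. Tagln3, at the floor in both groups of Lysfree vs Undifferentiated, was left out of the -0.54. Without Lysfree 1, 1 gene was called lower in Lysfree vs Differentiated in place of 2. Over 15 alternatives the number called higher in that comparison ranged from 3 to 9. The number called lower in Differentiated vs Undifferentiated ranged from 4 to 9. Ankrd1, a nuclear and sarcomeric stretch-response protein, had 32, 19 and 25 counts in Undifferentiated, 0, 3 and 3 in Differentiated and 68, 69 and 86 in Lysfree, and was at least 24.3-fold higher in Lysfree than in Differentiated (edgeR adjusted p = 5.04e-09). Ctgf, a secreted matrix protein induced by tension, and Synpo2, an actin-bundling protein, were at least 1.86-fold and at least 2.19-fold higher in this comparison (edgeR adjusted p = 0.00563 and 0.00968), at counts of 5 to 8 per Lysfree library. Cyr61, named after its values were seen, had 314, 355 and 264 counts in Differentiated and 136, 189 and 204 in Lysfree. It went the other way (log2 fold change -0.92, edgeR adjusted p = 4.1e-05), under 2-fold.

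Focal adhesion and filament linker genes tie the actin cytoskeleton to the matrix. Of 18 genes, 3 were called in Differentiated vs Undifferentiated, all lower, against 11.4% of all genes. In Lysfree vs Differentiated 4 were called higher, against 8.14%, and 1 lower, against 10.5%. In Lysfree vs Undifferentiated 0 were called in either direction by edgeR or DESeq2, and at an unadjusted edgeR p under 0.05 with no fold threshold 6 were higher and 6 lower. Itga11, a collagen-binding integrin subunit of fibroblasts, was at 7.06 ± 0.679, 0.563 ± 0.0696 and 5.04 ± 0.465 FPKM, a log2 fold change of 3.22 in Lysfree vs Differentiated (edgeR adjusted p = 7.59e-13). Vcl, the adhesion protein vinculin, was lower in Lysfree than in Differentiated (-1.66, edgeR adjusted p = 6.83e-12), and Flnc, an actin crosslinker, was higher (1.21, edgeR adjusted p = 2.52e-09).

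Vim was compared with other intermediate filament genes. Of 12 genes, 3 were called higher and 1 lower in Differentiated vs Undifferentiated, 2 lower in Lysfree vs Undifferentiated, and 3 higher and 4 lower in Lysfree vs Differentiated. Keratins of simple epithelia, Krt19, Krt18 and Krt8, were lower in Lysfree than in Differentiated. Krt19 had 2, 2 and 5 counts in Undifferentiated, 186, 212 and 204 in Differentiated and 2, 0 and 1 in Lysfree, and was at least 67.8-fold lower in Lysfree than in Differentiated (edgeR adjusted p = 3.37e-13). Krt18 and Krt8 were at least 7.69-fold and at least 5.18-fold lower (edgeR adjusted p = 1.13e-06 and 3.17e-05). Synm, which encodes the intermediate filament protein synemin and was named after its values were seen, was at 9.04 ± 0.487, 0.435 ± 0.0556 and 3.32 ± 0.290 FPKM (SD, n = 3) in Undifferentiated, Differentiated and Lysfree. It had the group order of Acta2, with log2 fold changes of -4.40 in Differentiated vs Undifferentiated and 2.99 (edgeR adjusted p = 1.59e-12) in Lysfree vs Differentiated.

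**Figure D4:**
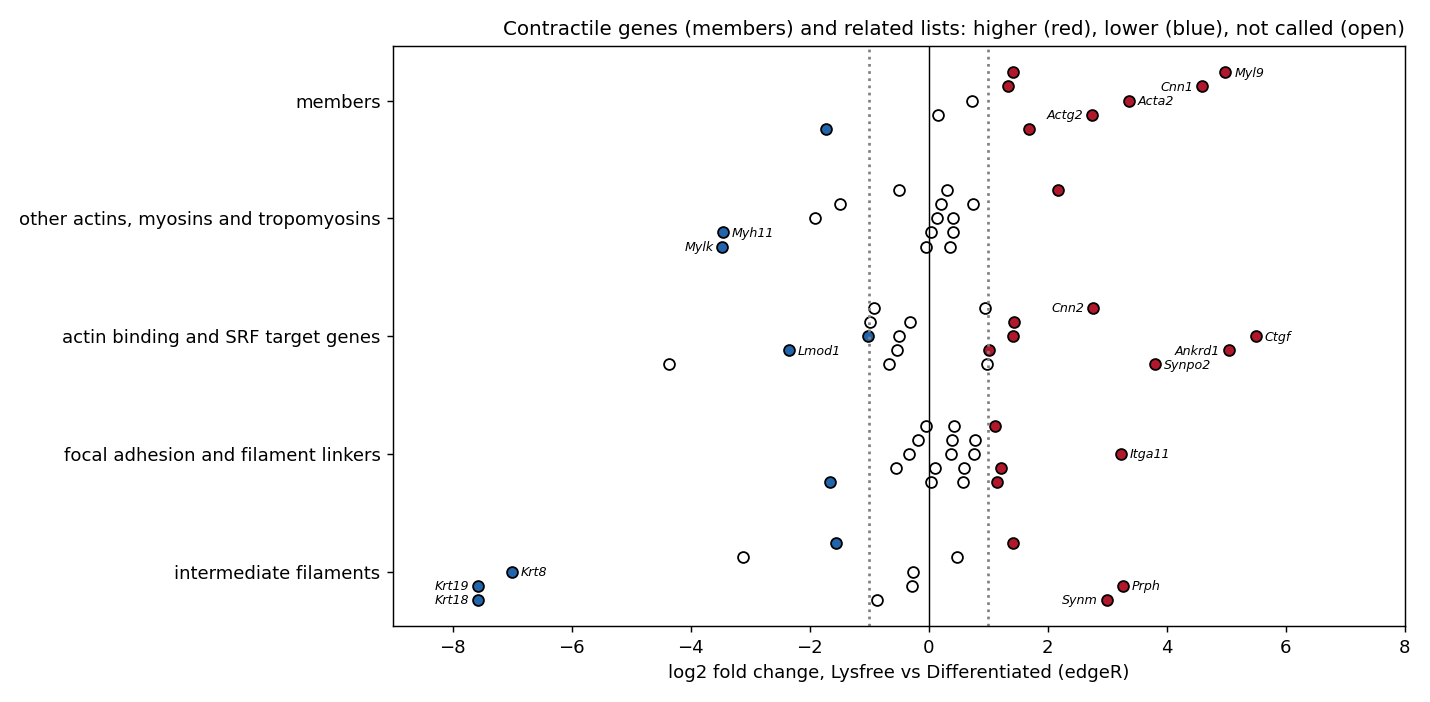
Fitted log2 fold change in Lysfree vs Differentiated (horizontal axis) of the 10 contractile genes and of the genes of 4 related lists (rows), with filled points for called genes, red higher and blue lower, and dotted lines at 2-fold. The contractile genes had 7 red points and 1 blue, while the intermediate filaments had 3 red and 4 blue.

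Marker lists of cell types moved with these results, and their part in them was not tested. All 9 adipocyte markers were called higher in Differentiated vs Undifferentiated and all 9 lower in Lysfree vs Differentiated, with log2 fold changes of -7.74 for Adipoq, -7.61 for Cidec and -5.99 for Fabp4 in the latter. Of 9 fibroblast and preadipocyte markers, 7 were called lower in Differentiated vs Undifferentiated, 5 lower and 1 higher in Lysfree vs Undifferentiated, and 5 higher in Lysfree vs Differentiated, led by Ly6a (2.52), Pdgfrb (1.90) and Thy1 (1.74). Their summed FPKM was 3561 to 3875 in Undifferentiated, 711 to 724.2 in Differentiated and 1326 to 1348 in Lysfree, the order of Acta2, Tpm1, Myl9 and Cald1. In Undifferentiated the sum was mostly Col1a1 and Col1a2, at means of 1887 and 1282. Not all genes of the list had this order. By mean, Col1a1 was at 361.7 in Differentiated and 326.8 in Lysfree, a difference that did not pass (edgeR adjusted p = 0.451). S100a4 had its lowest mean in Lysfree, where its libraries overlapped those of Differentiated (edgeR adjusted p = 0.74). Ly6a and Thy1 were highest in Lysfree, at 390 and 89.1.

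Genes that define smooth muscle followed the contractile genes in some comparisons and not in others. The summed FPKM of Myh11, Myocd, Des, Smtn, Lmod1 and Mustn1 was 14.36 to 14.7 in Undifferentiated, 11.78 to 12.8 in Differentiated and 4.171 to 5.951 in Lysfree. Of the 5 that were detected, 1 was called higher (Myh11) and 2 lower (Lmod1 and Mustn1) in Differentiated vs Undifferentiated, where 6 contractile genes were called lower. In Lysfree vs Undifferentiated 4 were called, all lower, beside 4 contractile genes called lower. In Lysfree vs Differentiated 4 were called, all lower, where 7 contractile genes were called higher. These 4 (Myh11, Lmod1, Smtn and Des) also stand in the lists above and were counted there. Smtn was only 2.04-fold lower, at 3.001 FPKM in Lysfree 1 and 4.202 and 3.823 in Lysfree 2 and Lysfree 3. Over 15 alternatives, the number of smooth muscle genes called lower in Lysfree vs Differentiated ranged from 1 to 4. Lmod1 and Des, a filament nucleator and the muscle intermediate filament, had log2 fold changes of -2.35 and -1.57 in that last comparison. The skeletal and cardiac muscle markers summed to at most 0.58 FPKM in any library. Of the 4 tested in Lysfree vs Differentiated, 1 was called, lower (Tnnt2, log2 fold change -2.39, edgeR adjusted p = 0.0226), at counts of 9, 10 and 7 in Differentiated and 0, 1 and 4 in Lysfree, and this call was not made in 7 of 15 alternatives, which include filters that can remove so low a gene. Macrophage and endothelial markers summed to 1.761 to 5.119 FPKM, and 1 of 6 was called in that comparison, higher (Tek, at least 4.48-fold, edgeR adjusted p = 0.00047).

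The genes most like Acta2 and Vim over the 9 libraries were found by Pearson's r of log2 CPM (counts scaled to a common library size), as a description, since the libraries fall into 3 groups. For Acta2, among 12709 genes with a mean of at least 1 CPM, they were Enpp3 (r = 0.9987), Ctsa (0.9985) and Pdgfrb (0.9984). For Vim they were Fam198b (0.9992), Selenop (0.9977) and Eif5a2 (0.9962).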

How the data were processed

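RNA of the 9 libraries was extracted and poly A enriched. Per the labels, reads were mapped to mm10 with HISAT2 2.0.5, and the submitters' processing notes also name featureCounts 1.5.0-p3. The authors deposited raw counts per gene and FPKM, normalized for gene length and library, for 54532 genes; 0 columns were left unmapped. Counts were tested with edgeR 4.0.16 (TMM, glmQLFit, glmQLFTest, Benjamini-Hochberg) in R 4.3.3, pairwise with 6 libraries at a time, on genes that had at least 1 count in them; genes with an adjusted p under 0.05 and a fold change of at least 2 were called. SE is the size of the log2 fold change divided by the square root of F. FPKM gave levels and isoform shares, and the floor was 3 counts per library. Alternatives used DESeq2 1.42.0, limma 3.58.1 and other filters and scalings. Scripts were tested on simulated data. Exon overlaps come from GENCODE vM21 and promoters from RefSeq. The named genes are the 10 members, their isoform families, Srf, Mrtfa, Mrtfb and Myocd, up to 3 called genes per other list with the largest fold change in Lysfree vs Differentiated, and the 3 genes most like Acta2 and Vim; 1 list and the genes most like Tagln are not reported here. Cyr61 and Synm were named in addition. Members and lists were chosen with earlier results of these data known. Promoters of Actg2 and Tagln were not used here.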

Additional observations from a re-analysis of the deposited data

How the results depend on the processing

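The members' log2 fold changes gave 433 values under the alternatives, of which 415 kept their direction and side of the threshold, 11 lost their call and 7 changed sign. Without the 2-fold threshold, 1 member was called higher in Differentiated vs Undifferentiated and 1 in Lysfree vs Undifferentiated, where 0 were called with it. With at least 10 counts in every library, 6 members were tested and 4 were called higher in Lysfree vs Differentiated. The sign changes were in Tagln and Vim. Leaving out 1 library at a time, the log2 fold change of Tagln ranged from -1.31 to 0.025 in Differentiated vs Undifferentiated, from -0.37 to 0.030 in Lysfree vs Undifferentiated and from -0.25 to 1.09 in Lysfree vs Differentiated, and that of Vim in Lysfree vs Undifferentiated from -0.051 to 0.10. The same-numbered libraries of different groups had correlations of their deviations from -0.0849 to 0.116, so the numbers were not taken to pair them. With the replicate block, 0 members were called higher and 6 lower in Differentiated vs Undifferentiated, 0 and 4 in Lysfree vs Undifferentiated, and 6 and 1 in Lysfree vs Differentiated, and Cnn1 had a log2 fold change of 4.61 with an edgeR adjusted p of 0.160. No scaling moved the median of all genes by 0.1 on the log2 scale. Depth limits Actg2, Tagln and Cnn1, which had at most 42 counts in a library. Computing the isoform shares from counts in place of FPKM moved 15 of 24 shares by more than 1 SD, since counts are not corrected for length.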
